A study of Homo sapiens with 6 samples.

Results

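Nuclear pore proteins and the transport receptors that pass through the pore were followed here as 1 set of genes: the rows of the deposited table whose symbols name a numbered nucleoporin (NUP), a karyopherin α or β (KPNA, KPNB), an importin (IPO), an exportin (XPO) or a transportin (TNPO), together with AAAS, SEH1L, SEC13, RANBP2, TPR, POM121 and NDC1. The symbols found 49 of the 23228 rows, 25 of them nucleoporins and 24 karyopherins. NDC1 had no row under that name, and its older symbol TMEM48 was read as an addition outside the 49.

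The RNA came from SaOS-2, an osteosarcoma cell line without functional RB and p53, into which a tetracycline-inducible p21 (CDKN1A) vector had been placed. The comparison was made over 6 libraries, 3 from cells left untreated (p21 OFF) and 3 after 24 h of 1 µg/ml doxycycline (p21 ON), all grown in the same medium and all carrying the vector. Cells given doxycycline without the p21 vector were not analysed here, so the drug and p21 cannot be told apart as the source of a difference, and whether the line is 1 clone is not given in the sources used here. The comparison asks what the transcripts of the nuclear transport machinery do when p21, an inhibitor of cyclin-dependent kinases, is switched on in cells that lack RB.

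The nuclear pore complex is a ring of stacked protein scaffolds set into the nuclear envelope, lined with disordered FG nucleoporins (rich in phenylalanine-glycine repeats) that only transport receptors can cross quickly. Importins bind cargo in the cytoplasm and release it in the nucleus when they meet Ran bound to GTP, whereas exportins need Ran-GTP to hold their cargo on the way out. In dividing animal cells the pores are taken apart as mitosis begins and rebuilt on the chromosomes as it ends, and several pore proteins and karyopherins also work at kinetochores and on the spindle.

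The libraries held 12795490 to 21975045 reads on genes. Normalized counts of CDKN1A itself were 1257, 1187 and 1355 without doxycycline and 40470.4, 43863 and 46739 with it. Of the osteoblast markers, RUNX2, SP7, ALPL and COL1A1 lay at 3028 normalized counts or more in every library and IBSP at 95.5 to 139, while SPP1 stayed at or under 2.96 and BGLAP was at 0 in all 6. IBSP was itself called lower, from 139, 123 and 126 to 95.5, 99.9 and 102 (log2 fold change -0.38, limma adjusted p = 0.0264; -0.33, adjusted p = 0.0796, without p21 OFF replicate 1), and any part of it in the results on the pore was not tested. Among markers of other cells, PTPRC, ALB and PECAM1 did not exceed 16.3 in any library, and EPCAM (292 to 374) and KRT8 (121 to 202) were present in both groups. One library stood apart: p21 OFF replicate 1 differed from the other p21 OFF libraries with a chi-square per gene of 8.495 and 9.26, against 2.71 to 3.98 for the other replicate pairs. Its values lay more than 0.2 log2 units from the mean of the other p21 OFF libraries for 12 of the pore and receptor genes, against 0 to 4 genes for any other library measured the same way within its own group, so the calls it moved most are given with and without it.

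Promoters of the 2 genes of the set with the largest falls and of the 2 called higher are shown first, because the study concerns genes that cell cycle complexes recognise through short promoter elements. Each sequence is the 250 bases before the RefSeq start, 5′ to 3′ on the gene's own strand, in the GRCh38.p14 assembly. Positions count back from the base just before the start, which is -1. Capitals mark TTTGAA or its reverse complement TTCAAA (the letters of the cell cycle genes homology region, CHR), TTCCCGC or TTGGCGC on either strand (E2F-type letters), and CCAAT or its reverse complement ATTGG.
NUP35, chr2:183124193-183124442, plus strand: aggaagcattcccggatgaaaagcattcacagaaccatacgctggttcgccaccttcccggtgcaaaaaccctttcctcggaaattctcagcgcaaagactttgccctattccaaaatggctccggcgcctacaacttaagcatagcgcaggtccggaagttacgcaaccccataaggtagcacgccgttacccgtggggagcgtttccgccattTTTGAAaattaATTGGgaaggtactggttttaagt
KPNA2, chr17:68035485-68035734, plus strand: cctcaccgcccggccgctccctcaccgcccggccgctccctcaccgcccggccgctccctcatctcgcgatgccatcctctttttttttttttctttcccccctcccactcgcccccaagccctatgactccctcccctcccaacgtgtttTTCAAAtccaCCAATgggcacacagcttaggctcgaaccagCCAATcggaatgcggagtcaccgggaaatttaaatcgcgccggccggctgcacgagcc
NUP210, chr3:13420323-13420572, minus strand: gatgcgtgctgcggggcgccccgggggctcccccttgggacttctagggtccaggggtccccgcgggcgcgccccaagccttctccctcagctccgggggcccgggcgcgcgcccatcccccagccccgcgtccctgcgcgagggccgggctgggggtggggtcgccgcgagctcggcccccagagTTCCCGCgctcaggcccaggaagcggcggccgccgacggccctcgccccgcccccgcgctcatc
NUP214, chr9:131125336-131125585, plus strand: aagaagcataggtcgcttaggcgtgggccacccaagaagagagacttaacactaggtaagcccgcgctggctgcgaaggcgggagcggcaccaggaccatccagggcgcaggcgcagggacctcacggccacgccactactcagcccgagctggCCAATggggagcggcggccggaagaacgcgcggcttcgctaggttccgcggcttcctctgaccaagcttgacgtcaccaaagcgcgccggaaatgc
In the NUP35 promoter TTTGAA began at -35 and was followed by ATTGG at -24. In the KPNA2 promoter TTCAAA began at -99, with CCAAT at -89 and -58. The NUP210 and NUP214 windows held no TTTGAA on either strand. NUP210 had TTCCCGC at -64 and NUP214 had CCAAT at -96.

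Most pore and receptor genes did not pass the test, and most of those that did were lower in p21 ON cells, led by NUP35 and KPNA2. Values are normalized counts (reads divided by a library's size factor), a gene is called when limma gives it a Benjamini-Hochberg adjusted p under 0.05 over all genes tested, and a fold change is the p21 ON minus p21 OFF difference of log2(normalized count + 1). A mean normalized count of at least 10 was reached by 48 of the 49 and so these were tested, KPNA7 having no read in any library. Of these 48, 13 were called lower (27.1%) and 2 higher (4.17%). Over all 13255 genes tested, 12.7% were called lower and 10.5% higher, 23.2% in all. Among genes with a mean of at least 100, which the 48 all reach, 15.5% were called lower. The median log2 fold change of the 48 was -0.09, with quartiles of -0.21 and 0.03, beside 0.01 for all genes tested. Every p21 ON library lay below every p21 OFF library for 18 of the 48 genes and above for 3, whereas over all tested genes such separation occurred in 21.3% and 19.1%. The nucleoporins had 9 lower and 2 higher calls of 25 and a median of -0.13. The karyopherins had 4 lower and 0 higher calls of 23, and a median of -0.06, and edgeR and DESeq2 called 0 of them higher. An unadjusted p under 0.05 was reached by 4 karyopherins (17.4%), beside 36.8% of all genes tested. These cells were sequenced in bulk, so fewer cells in one phase of the cycle and less RNA per cell cannot be told apart, and a value is a level relative to the other transcripts of its library.

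**Figure D1:**
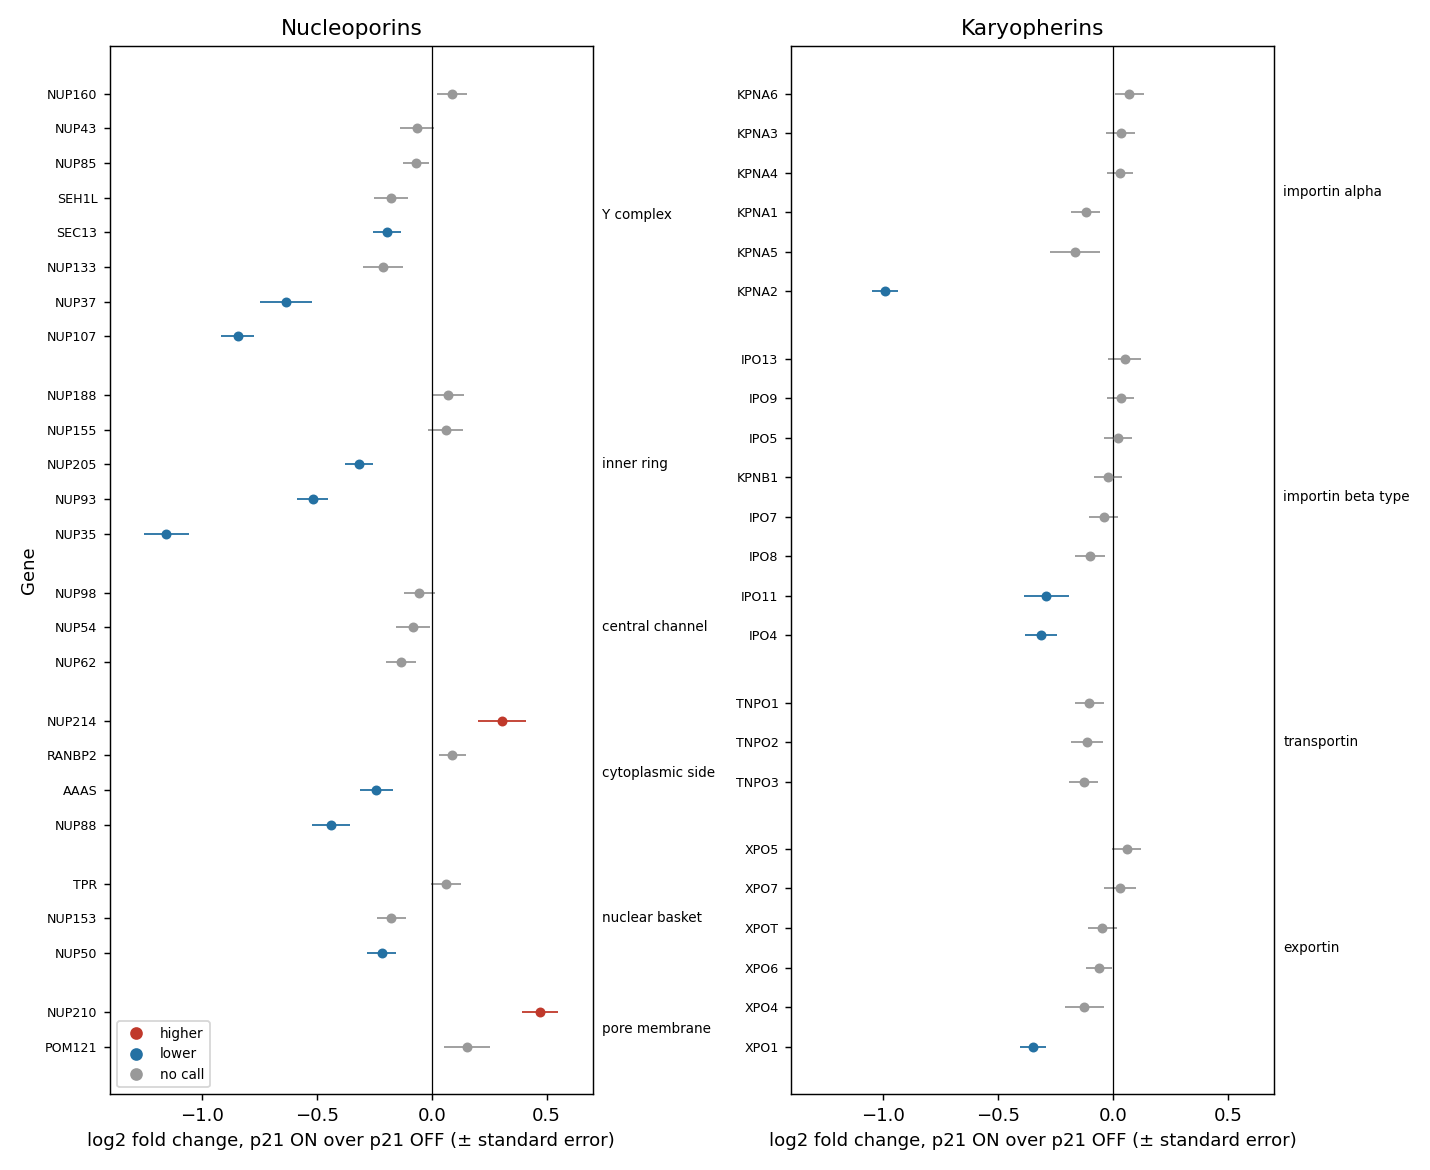
Log2 fold change (p21 ON over p21 OFF, horizontal axis) of each tested nucleoporin (left) and karyopherin (right), grouped by role, with bars for 1 standard error from limma. Blue points were called lower, red points higher and grey points neither, and the points run from -1.15 for NUP35 to 0.47 for NUP210.

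The Y complex is the outer scaffold of the pore, the first part to return to chromatin as mitosis ends. All 8 of its genes in the set were tested, with a median of -0.19. Of these 3 were called lower (37.5%) and 0 higher, beside 12.7% and 10.5% of all genes tested. An unadjusted p under 0.05 was reached by 5 of the 8, beside 36.8% of all genes tested. NUP107, the member for which the complex is often named, stood at 1706, 1590.4 and 1559 in p21 OFF and at 912, 978 and 818 in p21 ON. The groups were far apart, with a log2 fold change of -0.84 ± 0.07 (SE, n = 3 against 3, limma adjusted p = 9.27e-08). NUP37, a small β-propeller at the rim of the Y, read 273, 233 and 217 without doxycycline and 161, 166 and 137 with it. It fell by 0.64 ± 0.11 on the log2 scale (adjusted p = 0.000668) and by 0.54 without p21 OFF replicate 1, its highest library. SEC13, which also serves in the COPII vesicle coat, fell by 0.19 ± 0.06 (adjusted p = 0.0272). Its counts were 2372, 2259.8 and 2181 against 1939, 2054 and 1961, which do not overlap but leave a narrow gap.

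The other 5 Y complex genes were not called, though not all in the same way. NUP133 (-0.21, adjusted p = 0.0844), SEH1L (-0.18, adjusted p = 0.0866) and NUP85 (-0.07, adjusted p = 0.40) had every p21 ON library under every p21 OFF library. SEH1L also belongs, with SEC13, to the GATOR2 complex of nutrient sensing. NUP43 gave -0.06 and NUP160 0.09, with overlapping groups. The Y complex thus held a gene at 0.558 of its p21 OFF mean (NUP107) beside one at 1.06 of it (NUP160).

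The inner ring, which ties the scaffold to the curved membrane of the pore, had 3 lower calls among 5 genes and a median of -0.32. Over all genes tested, limma called 12.7% lower, and 15.5% of those with a mean of at least 100. NUP35, an inner ring protein that binds the membrane, had the lowest fold change of the 48 genes. Its counts were 505, 409 and 413 in p21 OFF and 209.5, 185 and 198 in p21 ON. Every p21 ON value was under the lowest p21 OFF value by a wide margin. NUP35 changed by -1.15 ± 0.10 on the log2 scale (adjusted p = 7.88e-08), or -1.06 without p21 OFF replicate 1, where NUP35 was highest. NUP93, the linker that holds the ring together, stood at 1218, 1239.7 and 1119 against 803, 869 and 825, a change of -0.52 ± 0.07 (adjusted p = 2.69e-05). NUP205, a large scaffold protein, read 2827, 3153 and 3105 against 2370.2, 2503 and 2417, a change of -0.32 ± 0.06 (adjusted p = 0.00142). Its paralog NUP188, which takes the equivalent place beside NUP93, was not called (0.07, adjusted p = 0.464), with 4850.2, 5935 and 5479 against 5703, 5677 and 5664. NUP155, the remaining ring gene, gave 0.06 (adjusted p = 0.602).

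Genes of the central channel gave 0 calls of 3 by limma, edgeR and DESeq2 alike, with 0 at an unadjusted p under 0.05 in limma. Over all genes tested, limma called 23.2%, and 36.8% had an unadjusted p under 0.05. NUP62, an FG nucleoporin of the channel, was the most abundant nucleoporin per kilobase of transcript, at 2152 normalized counts per kb in p21 OFF. Its counts were 6514, 7544 and 7638 in p21 OFF and 6479.6, 6610.1 and 6652 in p21 ON, so the groups overlapped through p21 OFF replicate 1 alone. The log2 fold change was -0.13 (adjusted p = 0.148), and without that library it was -0.21 (adjusted p = 0.00255). NUP54 gave -0.08 and NUP98 -0.05. The NUP98 transcript also encodes NUP96, a Y complex protein cut from the same precursor, so its row covers both.

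On the cytoplasmic face, partner proteins were called in opposite directions. NUP88 fell from 887, 753 and 752 to 567, 635 and 559.7, by 0.44 ± 0.08 on the log2 scale (adjusted p = 0.000964), and changed by -0.36 without p21 OFF replicate 1. Of its annotated exon bases, 31.7% overlap RABEP1 on the other strand, and the strand setting of the counting is not given in the sources used here. NUP214, which sits with NUP88 and NUP62 and takes part in messenger RNA export, read 1904, 2837 and 2748 in p21 OFF and 3092, 2921 and 3099.7 in p21 ON. It was called higher by 0.30 ± 0.10 (adjusted p = 0.0434), but the p21 OFF mean rests on a low replicate 1: without it the change was 0.12 (adjusted p = 0.107). AAAS (ALADIN), a β-propeller protein anchored by NDC1, fell from 814, 838 and 809 to 729.9, 646 and 709, by 0.24 ± 0.07 (adjusted p = 0.0199). RANBP2, the SUMO ligase that forms the cytoplasmic filaments, was not called (0.09, adjusted p = 0.289) although each p21 ON library lay above each p21 OFF library. Near-identical RGPD copies may share its reads.

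In the nuclear basket, NUP50, which helps importin α shed its cargo, had counts of 1299, 1236 and 1309.8 in p21 OFF and 1125, 1116 and 1064 in p21 ON. The groups were separate and the change was -0.22 ± 0.06 (adjusted p = 0.0187). NUP153, an FG nucleoporin that anchors the basket, had the same order of groups and just missed the threshold (-0.18, adjusted p = 0.0523). Its p21 OFF replicate 1 was low, at 4327 against 4884 and 4955 in the other p21 OFF libraries. TPR, the coiled-coil filament of the basket, gave 0.06 (adjusted p = 0.512).

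The transmembrane nucleoporins moved apart from each other. NUP210, a membrane glycoprotein of the pore, had the largest rise of the 48 genes, from 3406, 4236 and 4479 to 5679.9, 5389 and 5634. All p21 ON values were above all p21 OFF values, with a log2 fold change of 0.47 ± 0.08 (adjusted p = 0.000405), or 0.35 (adjusted p = 2.24e-06) without the low p21 OFF replicate 1. POM121 was not called (0.15, adjusted p = 0.271), with 581 in p21 OFF replicate 1 against 769 to 831 in the other libraries, and its near copy POM121C may share its reads. NDC1, the membrane anchor that holds both AAAS and NUP35, was listed as TMEM48 and was looked up after the other values had been seen. It stood at 1747, 1909.9 and 1854 in p21 OFF and at 974, 1006 and 930.3 in p21 ON. It fell by 0.92 ± 0.06 on the log2 scale (adjusted p = 4.58e-09), so of the 3 membrane proteins NDC1 was lower, NUP210 higher and POM121 not called.

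**Figure D2:**
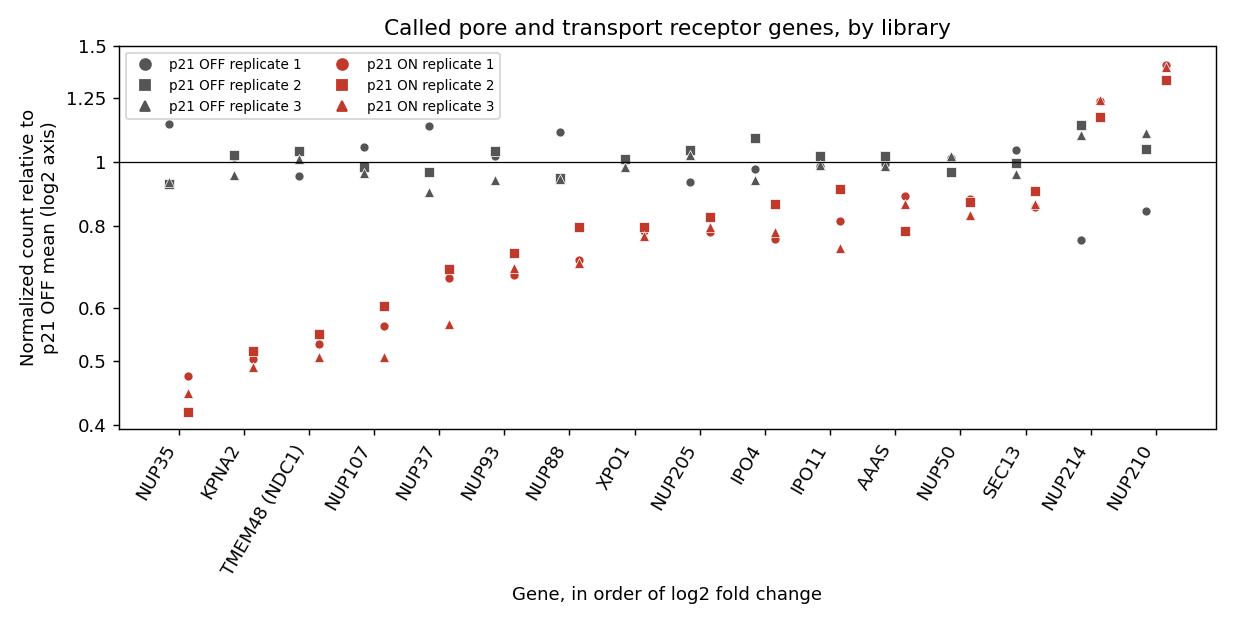
Normalized count of each called gene in each of the 6 libraries, divided by the gene's p21 OFF mean (log2 axis, grey for p21 OFF, red for p21 ON, a marker shape per replicate). NUP35 falls to under 0.5 of its p21 OFF mean in every p21 ON library, and the grey circle of p21 OFF replicate 1 is the lowest point for NUP214 and NUP210.

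Among transport receptors the largest change was in KPNA2 (importin α1), one of the adaptors that bind the classical nuclear localization signal and hand cargo to importin β. KPNA2 stood at 7632, 7705 and 7182 in p21 OFF and at 3779, 3876 and 3666 in p21 ON. Its mean went from 7506 ± 284 to 3774 ± 105 (SD, n = 3 each), 0.503 of the p21 OFF level, with a log2 fold change of -0.99 ± 0.06 (adjusted p = 3.65e-10). Per kilobase of transcript it was the highest of the 49 genes in p21 OFF, at 3797 normalized counts per kb, and stood at 1909 in p21 ON, where NUP62 was at 1958.

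The other importin α genes showed no call. KPNA1 had 2092, 2276 and 2129.5 against 1965, 2134 and 1891 (-0.12, adjusted p = 0.192). KPNA3 had 1066, 1166 and 1167 against 1164, 1156 and 1156 (0.03, adjusted p = 0.742). KPNA4 had 3216, 3225 and 3178 against 3211, 3368 and 3247 (0.03, adjusted p = 0.729). In these the groups overlap. KPNA6 likewise overlapped, with 2112, 2351 and 2362 against 2453, 2324 and 2388 (0.07, adjusted p = 0.433). KPNA5, the least abundant, had 151, 144 and 141 against 132, 132 and 125 (-0.16, adjusted p = 0.288), without overlap. The α adaptors differ in the cargoes they prefer, and the fall of KPNA2 changed their mix. Divided by transcript length, KPNA2 made up 76.0, 75.0 and 74.0% of importin α transcripts in p21 OFF cells and 60.2, 60.4 and 59.8% in p21 ON cells. The mean share was 75.0 ± 1.01% against 60.1 ± 0.288% (SD, n = 3 each), a difference of -14.9 percentage points (two-sided exact permutation p = 0.1, the smallest that 3 against 3 allows). KPNA4 went from 7.08 to 11.5%, KPNA6 from 6.12 to 10.2%, KPNA1 from 6.21 to 9.12% and KPNA3 from 5.31 to 8.65%. The sum of the 6 adaptors per kilobase went from 5060 ± 146 to 3175 ± 73.4, a ratio of 0.627 (exact permutation p = 0.1). Shares must sum to the whole, so the larger shares of the others follow from the lower KPNA2 level.

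**Figure D3:**
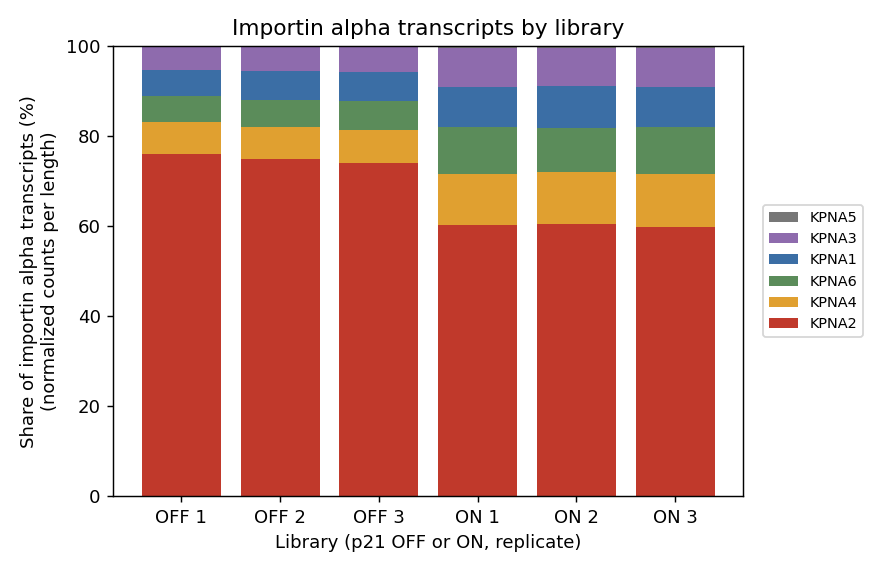
Share of each importin α gene (KPNA1 to KPNA6) among their summed normalized counts per transcript length, in percent, as stacked bars for the 6 libraries. The KPNA2 segment reaches 74.0 to 76.0% in p21 OFF and 59.8 to 60.4% in p21 ON.

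KPNB1 (importin β1), which carries the α adaptors and their cargo through the pore, was among the most abundant members and did not pass the test. Its counts were 8407, 9137 and 9157 in p21 OFF and 8488, 9286 and 8529 in p21 ON, with a change of -0.02 (adjusted p = 0.828) and overlapping groups. Of the 8 β-type importins 2 were called lower and 0 higher, beside 12.7% and 10.5% of all genes tested. Among all tested genes with a mean of at least 100, the lower share was 15.5%. IPO4, which imports histones and ribosomal proteins, fell from 2243, 2497 and 2157 to 1759, 1982 and 1804, by 0.31 ± 0.07 (adjusted p = 0.00363). For IPO4, 68.7% of the exon bases are shared with another protein-coding gene model on the same strand, and its reads may be split with it. IPO11, a carrier of ubiquitin-conjugating enzymes, fell from 246, 255 and 247 to 203, 227 and 184, by 0.29 ± 0.10 (adjusted p = 0.0433), close to the threshold. IPO5, IPO7, IPO8, IPO9 and IPO13, which take ribosomal proteins, histones and other cargoes without an adaptor, ranged from -0.10 for IPO8 to 0.05 for IPO13, none called. The transportins gave 0 calls of 3 by limma, edgeR and DESeq2, and 0 at an unadjusted p under 0.05 in limma. Over all genes tested, these limma shares were 23.2% and 36.8%. TNPO1 (-0.10) and TNPO2 (-0.11) import RNA-binding proteins. TNPO3 (-0.13, adjusted p = 0.145), the importer of SR splicing factors, read 2127, 2279 and 2345 against 2041, 2144 and 1995 and was called only when p21 OFF replicate 1 was left out (-0.17, adjusted p = 0.0295).

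Of the 6 exportins only XPO1 was called (16.7%), beside 23.2% of all genes tested called in either direction. XPO1 (CRM1), the receptor for leucine-rich export signals and also a kinetochore protein, stood at 5650.2, 5695 and 5529.6 in p21 OFF and at 4428, 4488 and 4338 in p21 ON. Replicates lay close together and the groups were well separated, at -0.35 ± 0.06 on the log2 scale (adjusted p = 0.000213). The more specialised exportins were not called: XPO4, which exports eIF5A, gave -0.12, XPO6, the actin exporter, -0.06, XPOT, the tRNA exporter, -0.05, XPO7 0.03 and XPO5, the exporter of microRNA precursors, 0.06.

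The Ran cycle that drives these receptors was read from a further list of 25 genes of transport and the pore, of which 24 were tested (NUP210L was under the filter). Of these 8 were called lower and 1 higher (33.3% and 4.17%, beside 12.7% and 10.5% of all genes), and the median was -0.13. Among genes with a mean of at least 100, which all those tested but SNUPN reached, 15.5% were called lower. CSE1L, the exportin that returns importin α to the cytoplasm, had 3842, 3847 and 3699 in p21 OFF and 2189.8, 2277 and 2072 in p21 ON, a change of -0.80 ± 0.06 (adjusted p = 1.07e-08). RANGAP1, which triggers GTP hydrolysis by Ran outside the nucleus, had 3083, 2993 and 2697 against 1858, 1836 and 1774, a change of -0.68 ± 0.06 (adjusted p = 3.03e-07). RCC1, the chromatin-bound exchange factor that loads Ran with GTP, had 3500.2, 3650.3 and 3436 against 2509, 2759.8 and 2449 (-0.46 ± 0.06, adjusted p = 3.90e-05). In all of these the groups were separate. RAN itself read 2694, 2461 and 2423 against 1946, 2052 and 1849 (-0.37 ± 0.06, adjusted p = 0.000481). ENY2, a subunit of the TREX-2 export complex and of SAGA, changed by -0.43 (adjusted p = 0.000981), or -0.33 without its high p21 OFF replicate 1. Calls near the threshold were those of RANBP1 (-0.20, adjusted p = 0.0360), which helps Ran-GTP leave the receptors, NUTF2 (-0.19, adjusted p = 0.0336), which brings Ran back into the nucleus, and GLE1 (-0.19, adjusted p = 0.0350), an activator of messenger RNA release at the pore. Each of these 3 was lost in 7 of the 16 other settings, so that 5 lower calls were left without any 1 of the p21 ON libraries. Without p21 OFF replicate 1 RANBP1 was at -0.14 (adjusted p = 0.0806). MCM3AP, the TREX-2 scaffold, was called higher at 0.17 ± 0.06 (adjusted p = 0.0486), and this call was lost in 10 of the 16 settings, including 5 of the 6 left-out libraries (0.13 to 0.17). Genes of the list that were not called included AHCTF1 (ELYS, -0.12), which seeds pore assembly on chromatin, NUP58, listed as NUPL1 (0.01), and the messenger RNA exporter NXF1 (-0.07). KPNA2 and its recycling exportin CSE1L, at 0.503 and 0.574 of their p21 OFF means, were thus both among the lower genes, with KPNB1 at 0.985.

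Several of these genes are in the cell cycle lists that the study compiled from earlier work on other cells, of which the copy used here is short by 1 gene a list. The high-stringency and low-stringency lists were pooled here for each phase, and genes listed for both phases were left out. The study's own SaOS-2 plots used the high-stringency lists. Of the 49 genes 8 are in the G2/M list: KPNA2, NUP35, NUP37, NUP50, NUP88, NUP98, IPO11 and TNPO2. The first 5 of these and IPO11 were called lower, none was called higher, and the median of the 8 was -0.36. For all 418 tested genes of that list 248 were called lower and 5 higher, with a median of -0.31. The G1/S list held 9 of the genes: NUP107, NUP155, NUP188, NUP43, NUP62, NUP85, IPO9, TNPO3 and TPR. Only NUP107 was called lower, none higher, and the median was -0.06, beside 117 lower and 89 higher of 537 and a median of 0.0022 for the whole list. The 31 tested genes in neither list had a median of -0.06. Of these 6 were called lower (19.4%) and 2 higher (6.45%), beside 12.7% and 10.5% of all genes tested. The lower ones were AAAS, IPO4, NUP205, NUP93, SEC13 and XPO1, and both NUP210 and NUP214, the higher ones, were in neither list. RAN, CSE1L, RANGAP1 and TMEM48 are G2/M genes in the same lists and RANBP1, AHCTF1 and NUPL1 are G1/S genes, the last 2 not called.

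The promoter letters were counted in windows from 250 bases before to 50 after the first RefSeq start, which 43 of the 49 genes had. On either strand, TTTGAA was in the windows of 5 of the 13 genes called lower, 3 of the 28 not called and 0 of the 2 called higher. The genes called lower with these letters were NUP35, KPNA2, NUP37, NUP205 and IPO11, and those not called were IPO7, NUP153 and NUP98. Beside the matches shown above, they began at -66 in NUP37, at -165 in NUP205 and at -108 in IPO11. KPNA2 had a further match, TTTGAA at 33 bases after the start, past the end of the printed sequence. TTTGAA was found in 15.43% of all 27305 windows and in 9.75% of the 10277 windows of tested genes, 17.06% for those called lower, 7.376% for those called higher and 8.77% for those not called. TTCCCGC or TTGGCGC was in 2 of the 13 genes called lower (NUP107 and IPO11), 1 of the 2 called higher and 7 of the 28 not called, beside 9.328% of all windows, 14.81% of those of tested genes, 17.2% of genes called lower and 16.34% of genes called higher. CCAAT on either strand was in 8 of 13, 1 of 2 and 10 of 28, beside 35.7% and 36.91%, and beside 46.31% of the windows of genes called lower and 29.23% of those called higher. Outside the set, TMEM48 had TTTGAA at -31, RAN at -3 and CSE1L at 21 bases after the start. A match gives the letters only and does not show that a protein binds there.

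In the GRCh37 annotation (the build of hg19), the genes with the largest falls lie on different chromosomes. NUP35 spans chr2:183982241-184026408, KPNA2 chr17:66031752-66043480, NUP107 chr12:69080731-69139589 and TMEM48 chr1:54231151-54304136. NUP37 (chr12:102466881-102513898) and AAAS (chr12:53701240-53718648) share chromosome 12 with NUP107 at a distance. Both genes called higher are elsewhere, NUP210 at chr3:13357735-13461822 and NUP214 at chr9:134000960-134110050.

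The calls were not equally firm. Under 16 other settings of scaling, test, filter, pseudocount, gene length, replicate block or left-out library, 10 of the 15 calls were made every time: KPNA2, NUP35, NUP107, NUP37, NUP93, NUP88, XPO1, NUP205, IPO4 and NUP210. The call was lost in 4 settings for AAAS and NUP50, in 6 for SEC13 and in 8 for IPO11 and NUP214. Left-out libraries were among these settings for each of the 5. AAAS was not called without p21 OFF replicate 2 (-0.23, adjusted p = 0.0691) or p21 ON replicate 2 (-0.19, adjusted p = 0.0904). NUP50 was not called without replicate 3 of p21 OFF or without replicate 1 or 3 of p21 ON, with -0.23 to -0.19 and adjusted p of 0.0576 to 0.0792. For SEC13 the libraries were p21 OFF replicate 2, p21 ON replicate 1 and p21 ON replicate 3, with -0.20 to -0.18 and adjusted p of 0.0660 to 0.129. IPO11 lost its call without p21 OFF replicate 2 or 3 and without p21 ON replicate 1 or 3, with -0.30 to -0.22 and adjusted p of 0.0707 to 0.174. NUP214 lost it without p21 OFF replicate 1 or any p21 ON library, with 0.12 to 0.33 and adjusted p of 0.0774 to 0.157. TMEM48 was called in all 16, with log2 fold changes of -0.96 to -0.88.

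**Figure D4:**
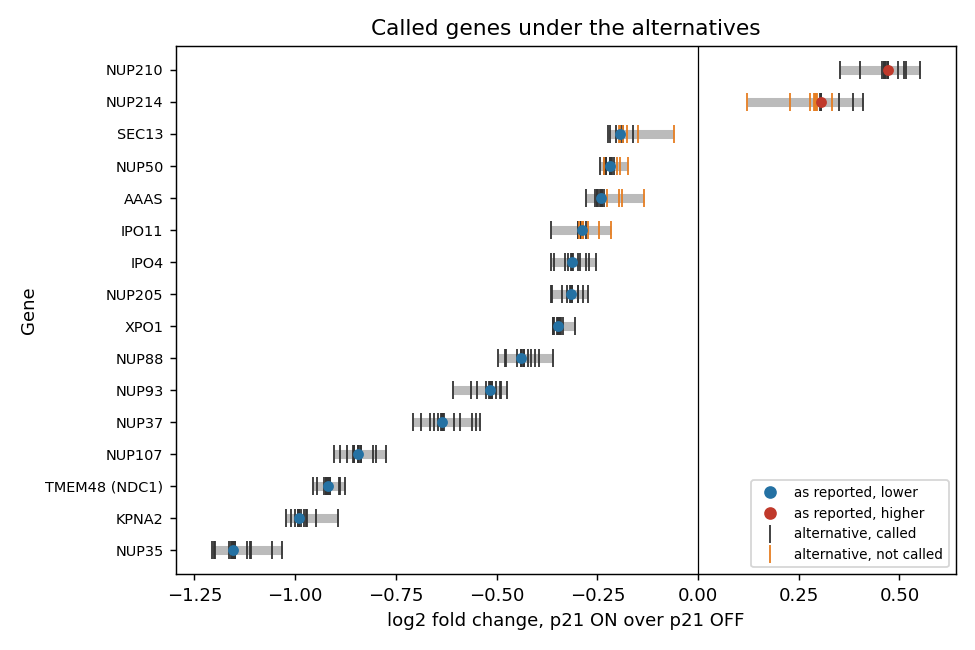
Log2 fold change (p21 ON over p21 OFF) of each called gene as reported (dot, blue lower, red higher) and under the 16 other settings (ticks, black where still called, orange where not), with the range as a grey bar. KPNA2 stays between -1.02 and -0.89, whereas NUP214 ranges from 0.12 to 0.41 with 8 orange ticks.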

How the data were processed

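Polyadenylated RNA of 6 SaOS-2 libraries was sequenced by the authors (TruSeq stranded kit, single-end reads). Per the submitters' processing notes, reads were mapped to hg19 with STAR, counted on genes with HTSeq and normalized with DESeq2 (versions not given in the sources used here). The deposited table holds the authors' normalized counts (unit signal, reads over size factor), and every value column was assigned to a sample (0 left over). In each library 100% of values were whole reads (tolerance 0.01 reads) once multiplied by the size factor, 0.796 to 1.35.

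Groups came from the sample titles. The main test was limma 3.58.1 (lmFit, eBayes with a trend, R 4.3.3) on log2(normalized count + 1), a scale that understates changes of low genes, over 13255 genes with a mean of at least 10, without covariates, with Benjamini-Hochberg adjustment over all of them. The study's methods call the replicates biological, and no source used here says whether they were separate cultures, so the p-values measure the spread between these libraries, which may be partly technical. No source used here says whether same-numbered libraries were prepared together. Their deviations correlated at -0.0571 to -0.0245, so no shared shift was seen, but this cannot show that they were prepared apart. On the recovered reads, edgeR 4.0.16 (quasi-likelihood, TMM) called 1401 genes higher and 1647 lower, and DESeq2 1.42.0 called 1118 and 1422. On simulated counts with these library sizes, limma called 100 of 100 genes changed by 1 log2 unit, 68 of 100 changed by 0.5 and 4 of 13023 unchanged ones. The simulation gave every gene the same dispersion and changed far fewer genes than were called here. It set no library apart in the way p21 OFF replicate 1 stood apart. These counts are therefore not the power or error rate in the real data. Other alternatives were library size and TMM scaling, pseudocounts of 0.1 and 10, no filter, a mean of at least 100, removal of a length trend, a replicate block, each library left out and an adjusted p under 0.01.

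The genes, roles and lists were chosen with earlier results of these data known. Values per library were given for the called genes, the largest change in each role, KPNA1 to KPNA6, KPNB1 and XPO1 (NUP188 was added after its values were seen, as the paralog of NUP205) and, of the further list of 25, for CSE1L, RAN, RCC1 and the strongest other call, with fold changes for its other calls. TMEM48 and the importin α shares were added after values were seen. Positions and canonical transcript lengths are from GENCODE release 44 lifted to GRCh37 (21015 rows matched, 2102 by an older symbol), and promoters are RefSeq, GRCh38.p14, 27305 windows. One cell type marker is not reported here.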

Additional observations from a re-analysis of the deposited data

How the results depend on the processing

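Over 24 named genes and 16 alternatives, 346 of 384 log2 fold changes kept their direction and their side of the threshold, 30 lost a call, 3 gained one and 5 changed sign. The sign changes were in genes near 0 with no call in any setting: KPNA3 without p21 OFF replicate 1 (-0.010, range over left-out libraries -0.010 to 0.055), KPNA4 and KPNA6 with a length trend taken out (-0.076 and -0.0010), and KPNB1 with library size scaling (0.022) and without p21 ON replicate 1 (0.0010, range -0.064 to 0.0010). Among the 24 named genes, calls were gained by KPNA1 with the length trend taken out (-0.18, adjusted p = 0.0324) and by NUP62 and TNPO3 without p21 OFF replicate 1. Genes of the set outside the 24 also gained calls. The number lower was 13 as reported, 14 with TMM scaling or edgeR, 15 with the length trend taken out and 16 without p21 OFF replicate 1. NUP214 lost its call with DESeq2 (adjusted p = 0.242), TMM scaling, edgeR, the length trend and 4 left-out libraries, so 1 gene of the set was higher under each of the first 4 and at an adjusted p under 0.01, and 1 to 2 with a library left out. SEC13 went to -0.06 (adjusted p = 0.399) with the length trend taken out; the cause was not tested. The number lower was 9 to 15 under the other settings and 10 to 16 with a library left out, the highest without p21 OFF replicate 1. Library size scaling shifted the set's median to -0.046 and that of all genes to 0.05, and higher calls made up 63.0% of all calls in place of 45.3% (2034 higher, 1194 lower). An adjusted p under 0.01 left 616 genes higher and 882 lower, and leaving out a library gave 695 to 1486 and 887 to 1660. Without p21 ON replicate 1 or 3 the number higher was 695 or 739 and the number lower 887 or 1077, and the set had 10 lower in both.

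In the further list, library size scaling and an adjusted p under 0.01 left 5 lower calls, and left-out libraries 5 to 8, with 5 without each p21 ON library in turn. Its only higher call as reported, MCM3AP, was lost (0) with TMM scaling, edgeR, no filter and an adjusted p under 0.01. The range over left-out libraries was 0 to 1, with 0 in 5 of the 6. MCM3AP was also not called with the length trend taken out (0.12, limma adjusted p = 0.0911). The 1 higher call of the list in that setting was of another gene. With the replicate number as a block, the set had 11 lower and 2 higher calls (IPO11 and SEC13 were lost, adjusted p = 0.0509 and 0.0642), the further list had 5 lower and 0 higher, and all genes had 1513 and 1407. Whether the numbers pair the libraries is not given in the sources used here. Without division by length (an alternative chosen after seeing the data, as were those for TMEM48 and for single genes outside the set) the KPNA2 share differed by -16.0 percentage points, and with a library left out by -15.4 to -14.4. Among the tested genes of the set KPNA5 had the fewest reads, 495 in p21 OFF and 353 in p21 ON.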

Other observations

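Genes of messenger RNA export upstream of the pore were read as a list chosen after the other values had been seen. Of 15 genes of the TREX complex and its partners 14 were tested, with 5 called lower, 0 higher and a median log2 fold change of -0.10, beside 12.7% of all genes called lower. DDX39A, an RNA helicase that loads export factors, stood at 1703, 1515 and 1415 normalized counts in p21 OFF and at 1058, 1031 and 1117 in p21 ON (-0.53, limma adjusted p = 4.50e-05). ALYREF, the export adaptor listed under its older symbol THOC4, had 3215, 2951 and 2678 against 2251, 2458 and 2287 (-0.34, adjusted p = 0.00224). In both genes the groups were separate. The THO complex itself was mixed: THOC6 (-0.34, adjusted p = 0.00865) and THOC7 (-0.26, adjusted p = 0.0380) were called lower, while THOC1 (0.13), THOC2 (0.12), THOC3 (-0.22) and THOC5 (0.06) were not called. SARNP was called lower (-0.33, adjusted p = 0.0487) with groups that overlap, p21 ON replicate 2 (285.1) lying just above p21 OFF replicate 3 (284.6). Without p21 OFF replicate 1 SARNP was at -0.19 (adjusted p = 0.175) and THOC7 at -0.20 (adjusted p = 0.0989), neither called, and each lost its call in 5 of 6 left-out libraries, while DDX39A, ALYREF and THOC6 were called in all 16 other settings.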
